A study of Mus musculus with 6 samples.

Results

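Otx2 and 7 further homeobox genes of the anterior neural plate (Hesx1, Six3, Emx2, Dmbx1, Lhx2, Rax and Lhx5) were examined in posterior tissue of mouse embryos with and without Wnt3a. The group comprised every probe set that the array annotation assigns to one of these 8 symbols, 10 probe sets of 45037 that were not controls, with 3 for Six3 and 1 for each other gene. The genes were picked with the null against wild-type difference of these arrays in view, so their own differences are given below as a description. They were part of the fit across all probe sets and were not tested otherwise. Tissue was the microdissected node and primitive streak of embryos of day 7.75 to 8 with 0 to 2 somites, on a mixed C57BL/6 and 129/Sv background. The Wnt3a null group held 3 pools and the wild-type group 3 pools, each pool joining amplified RNA of 3 embryos of like stage and genotype on 1 Affymetrix Mouse Genome 430 2.0 array. How the null allele was made is not described in the labels. Animals within a pool cannot be told apart, so the spread below is between pools.

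Head and trunk are set apart early in the mouse embryo. Wnt signals made at the posterior end promote trunk and tail fates, and the future forebrain forms where Wnt signalling is low or blocked by secreted antagonists. Otx2 encodes a paired-type homeodomain protein that is present throughout the early epiblast, retreats to the anterior neural plate and anterior mesendoderm as gastrulation proceeds, and is required for forebrain and midbrain. Hesx1 and Six3 are forebrain repressors that act with Groucho/TLE corepressors, and Six3 is known to hold back Wnt gene expression in the anterior brain. Rax and Lhx2 belong to the eye field, Lhx5 to the forebrain and Emx2 to the dorsal telencephalon, and Dmbx1 to the midbrain and diencephalon.

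The upstream sequences of the Otx2 and Hesx1 genes are shown because the signals of these 2 genes followed each other most closely among the 8. They are the 250 bases before the RefSeq start (the outermost of 4 starts for Otx2, the only start for Hesx1) in build GRCm38.p6, on the strand of the gene. Otx2 lies at chr14:48667645-48667894 on the minus strand and Hesx1 at chr14:27000112-27000361 on the plus strand. Capitals mark the motif TAATTA.
Otx2: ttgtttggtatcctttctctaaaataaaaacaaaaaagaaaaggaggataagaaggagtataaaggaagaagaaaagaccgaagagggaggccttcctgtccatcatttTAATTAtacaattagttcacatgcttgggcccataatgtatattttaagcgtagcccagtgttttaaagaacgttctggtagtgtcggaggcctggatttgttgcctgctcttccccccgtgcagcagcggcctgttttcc
Hesx1: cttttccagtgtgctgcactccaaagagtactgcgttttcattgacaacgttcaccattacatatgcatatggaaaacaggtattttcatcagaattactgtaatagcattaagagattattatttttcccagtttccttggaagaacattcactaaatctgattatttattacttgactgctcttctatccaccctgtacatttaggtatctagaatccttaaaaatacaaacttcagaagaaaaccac
Windows of this length were searched on both strands for TAATTA, a core bound by many homeodomain proteins (its own reverse complement), for TAATCC, the form preferred by Otx-type homeodomains, and for CTTTGA, a core of TCF/LEF sites, the nuclear end of Wnt signalling. TAATTA occurred once in the printed Otx2 window, 141 bases before the start, and no match overlapped another. TAATTA was present in 4.84%, TAATCC in 6.25% and CTTTGA in 13.8% of 32851 windows of all genes. A further Otx2 start, the third from the outermost, had 3 TAATTA and 1 TAATCC in its window. None of the 3 motifs occurred in the windows found for Hesx1, Six3, Emx2, Dmbx1 and Lhx2. A match is a string of letters and not a measured site.

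Signals are linear intensities per probe set with no unit, scaled so that the trimmed mean of each array was 500. Median signals were 77.7 to 86.1 on the null arrays and 73.6 to 81.0 on the wild-type arrays, and null pool 1 had the highest median. In amplified RNA the 3'/5' ratio of control probe sets need not reflect RNA integrity alone. The ratio of the Gapdh probe sets was lower on all null arrays (2.09 to 2.39, against 2.51 to 3.00 on wild-type arrays). That of beta-actin overlapped between genotypes, at 2.38, 3.83 and 3.13 in null pools 1, 2 and 3, against 2.68, 3.69 and 3.23 in wild-type pools 1, 2 and 3. In both ratios null pool 1 was the lowest and null pool 2 the highest of the null pools, the reverse of the Otx2 order given below, and their part in the results was not tested. Of 13 measured node and streak genes, 11 lay at or above the median of all probe sets (a signal of 71.5), so genes of the labelled tissue were measured. Noto had no probe set with a single symbol. These genes averaged lower in null pools in 12 of 13 cases, with a median log2 difference of -0.68. In 6 the null pools lay entirely below the wild type, as in 4.41% of all probe sets. In 0 they lay entirely above, as in 5.57% of all. In this list 0 genes passed the test across all probe sets. At an unadjusted p under 0.05, 4 were lower, as were 2.20% of all probe sets. Sp5, a zinc finger gene downstream of Wnt, had 317, 411 and 495 in null pools, against 1750, 941 and 1306 in wild-type pools. Tbx6, a T-box gene of presomitic mesoderm, had 704, 652 and 612 in null pools, against 1107, 1120 and 1069 in wild-type pools. The part of this tissue's share of the dissected cells in the results below was not tested. Wnt3a itself had 961, 761 and 1009 in null pools, against 865, 1058 and 996 in wild-type pools, and its probe set does not check the genotype, because a null allele may leave transcript that the probes still detect.

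Otx2 had a higher signal in every null pool than in any wild-type pool. It was 1367, 216 and 468 in null pools 1, 2 and 3, against 129, 87.6 and 60.7 in wild-type pools 1, 2 and 3. The null mean was 684 ± 605 and the wild-type mean 92.4 ± 34.4 (SD over 3 pools in either case), and the log2 difference was 2.55, a ratio of 5.86 between geometric means. Among 11153 genes whose brightest probe set was at or above the median, 2 had a larger log2 difference in this direction. This rank is no test, because Otx2 belongs to genes picked with this same difference in view. The lowest null pool was 1.67 times the highest wild-type pool.

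The size of the Otx2 difference depended on the pool. Null pool 1 was 6.34 times null pool 2 and 2.92 times null pool 3, whereas the highest and lowest wild-type pools were 2.13-fold apart. On the log2 scale the SD was 1.34 among null and 0.54 among wild-type pools. The SD within genotype, 1.02, lay above that of 97.8% of the 501 probe sets nearest in level, whose median was 0.32. Without null pool 1 the log2 difference was 1.85, without null pool 2 it was 3.18, and the wild-type pools moved it less. In tissue of mixed cells, more cells of a kind and more RNA per cell cannot be told apart.

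Hesx1 showed the same order of the null pools at lower signals. It was 178, 51.5 and 114 in null pools 1, 2 and 3, against 50.4, 33.0 and 47.4 in wild-type pools 1, 2 and 3. The groups did not overlap, but null pool 2 exceeded the highest wild-type pool by a factor of 1.02. The log2 difference was 1.25, with an SD within genotype of 0.68 where 0.50 was the median of probe sets at a like level. Over the 6 arrays Hesx1 and Otx2 had a Pearson correlation of 0.94 in log2 signal and a Spearman correlation of 0.94, a description only, since the arrays share 2 genotypes.

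Emx2, in which the groups also did not overlap, had 129, 77.5 and 79.1 in null pools, against 62.6, 60.6 and 7.33 in wild-type pools. Its log2 difference was 1.61, and 0.58 without wild-type pool 3. On the log2 scale the SD was 0.41 among null pools, against 1.77 among wild-type pools.

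Six3, the other forebrain repressor, was represented 3 times, and its probe sets did not point one way. The brightest had 119, 92.6 and 85.5 in null pools, against 63.1, 93.1 and 77.4 in wild-type pools. These groups overlapped and the log2 difference was 0.35, with an SD of 0.27 and a range of 0.21 to 0.49 with single pools left out. The probe set of middle signal had 102, 59.4 and 15.6 in null pools, against 41.3, 8.07 and 43.8 in wild-type pools, with a log2 difference of 0.90 and an SD of 1.39. This value was 0.10 without wild-type pool 2 and 1.67 without null pool 3. The dimmest was near the bottom of the array scale at 1.95 to 3.60 across null pools, against 2.13 to 5.83 across wild-type pools, and its log2 difference was -0.11.

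The eye field genes Rax and Lhx2 were dim and their groups overlapped. Rax had 46.1, 24.6 and 30.8 in null pools, against 25.4, 15.7 and 31.9 in wild-type pools (log2 difference 0.49, and 0.20 without wild-type pool 2, 0.71 without wild-type pool 3). Lhx2 had 51.1, 77.5 and 27.5 in null pools, against 47.9, 68.9 and 6.75 in wild-type pools. Its log2 difference was 0.76, and -0.27 without wild-type pool 3. The wild-type pool 3 signal was thus the lowest of the 6 arrays for both Emx2 and Lhx2.

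Dmbx1 and Lhx5 stood at opposite signs and their groups overlapped. Dmbx1 had 70.9, 39.6 and 74.4 in null pools, against 11.0, 73.9 and 21.3 in wild-type pools (log2 difference 1.20, with an SD of 1.05). With single pools left out it ranged from 0.58 (without wild-type pool 1) to 1.96 (without wild-type pool 2). Lhx5 had 61.1, 30.1 and 10.1 in null pools, against 45.9, 52.5 and 18.5 in wild-type pools. Its log2 difference was -0.42, and 0.28 without null pool 3. It was the only gene of the 8 whose brightest probe set averaged lower in null pools.

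**Figure D1:**
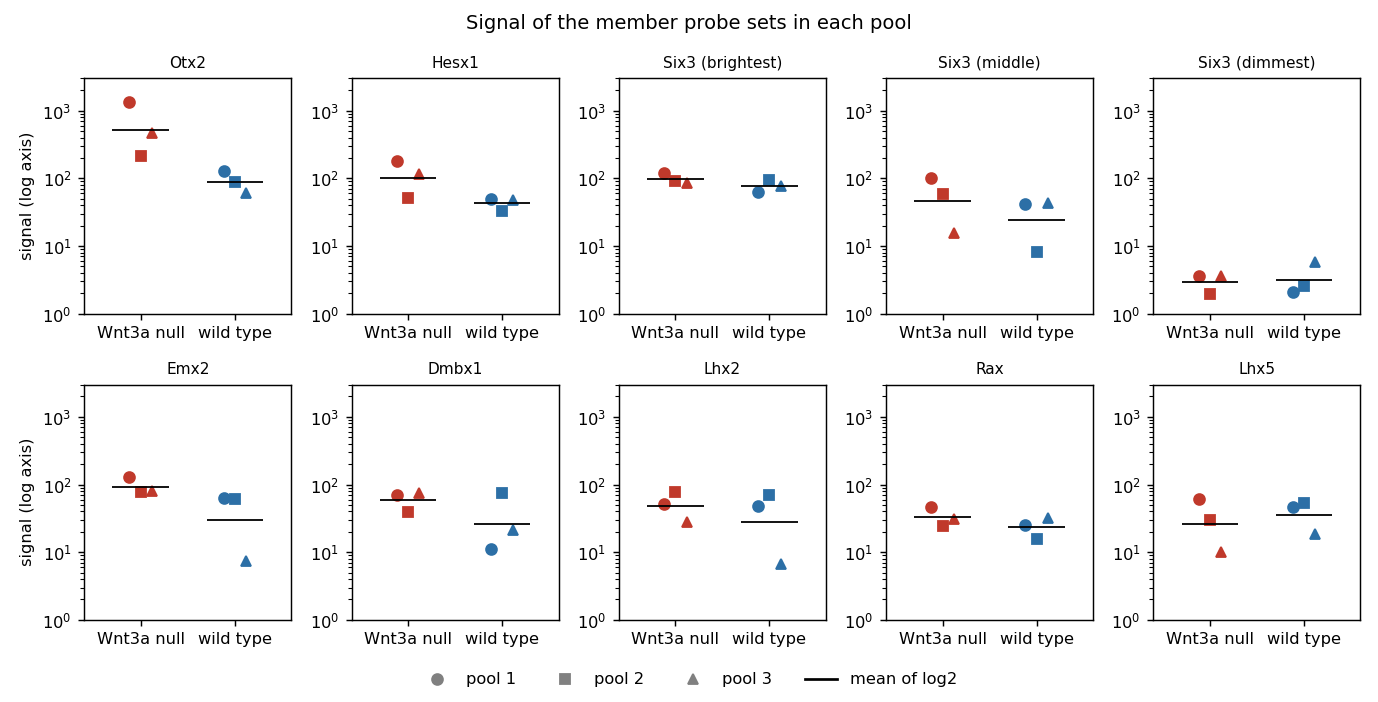
Signal of each of the 10 probe sets (log axis, no unit) in the 3 Wnt3a null pools (left, red) and the 3 wild-type pools (right, blue), with marker shape for the pool number and a bar at the mean of log2 values. Otx2 null pools lie at 216 to 1367, above the wild-type pools at 60.7 to 129, while 7 of the 10 panels show overlapping groups.

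As a set, 8 of the 10 probe sets had a higher mean log2 signal in null pools, where 51.7% of all probe sets did, and 7 of the 8 brightest did, where 50.8% of all genes did. Groups did not overlap for 3 probe sets, all higher in null (Otx2, Hesx1 and Emx2), and 5.57% of all probe sets had null pools entirely above wild-type pools. In 0 of the 10 the null pools lay entirely below the wild type, as in 4.41% of all. The null pool exceeded its same-numbered wild-type pool in all 3 numbers for 4 probe sets (Otx2, Hesx1, Emx2 and Lhx2), as it did for 15.0% of all, and was below it in all 3 for 0, against 13.7% of all. The median log2 difference of the 8 brightest probe sets was 0.98, against 0.00 over all 18193 genes. It was 0.65 without wild-type pool 3 and 0.33 with 50 added to each signal before the logarithm. These counts describe genes that were chosen on this contrast.

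**Figure D2:**
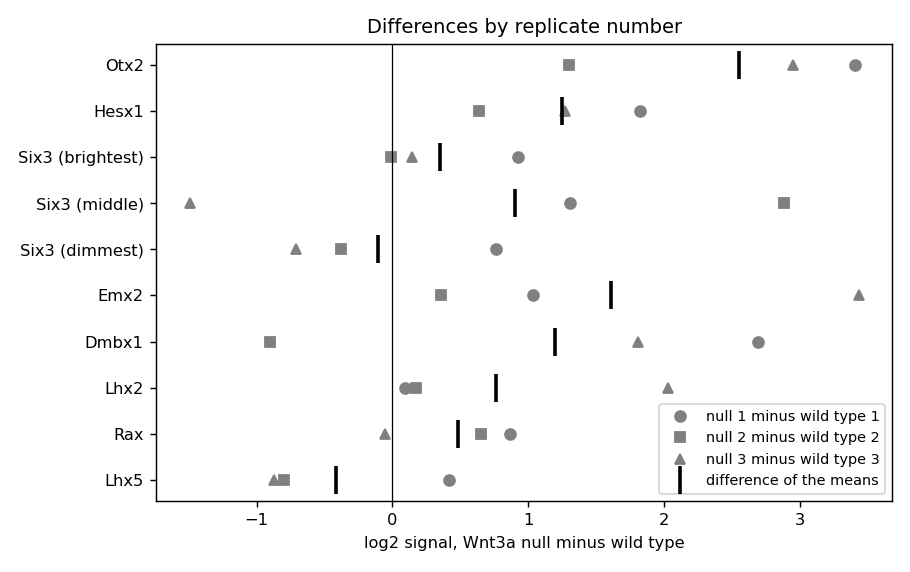
Log2 signal of the null pool minus that of the wild-type pool with the same replicate number (grey markers), and difference of the means (black bar), for each of the 10 probe sets. Otx2 had 3.41, 1.30 and 2.95 for numbers 1, 2 and 3, and Hesx1 had 1.82, 0.64 and 1.27, while the other probe sets except Emx2 and Lhx2 had values on both sides of 0.

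Most of the group was measured below the middle of the array's range of signals. Only Otx2 and the brightest Six3 probe set had a mean log2 signal at or above the median of all probe sets, and Hesx1 lay just under it. Below that level the SD between pools was large for all probe sets. For probe sets at the level of Emx2 the median SD was 0.57, at the level of Dmbx1 0.81, of Lhx2 0.86, of Lhx5 1.02 and of Rax 1.06. Within genotype the SD was 1.02 for Otx2, 0.68 for Hesx1, 1.29 for Emx2 and 1.05 for Dmbx1. It was 1.38 for Lhx2 and 1.09 for Lhx5, and all of these lay above the median at their level. Rax, at 0.49, and the brightest Six3 probe set, at 0.27, lay below it. The log2 differences were not tested against this spread, since the genes were chosen on this contrast.

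**Figure D3:**
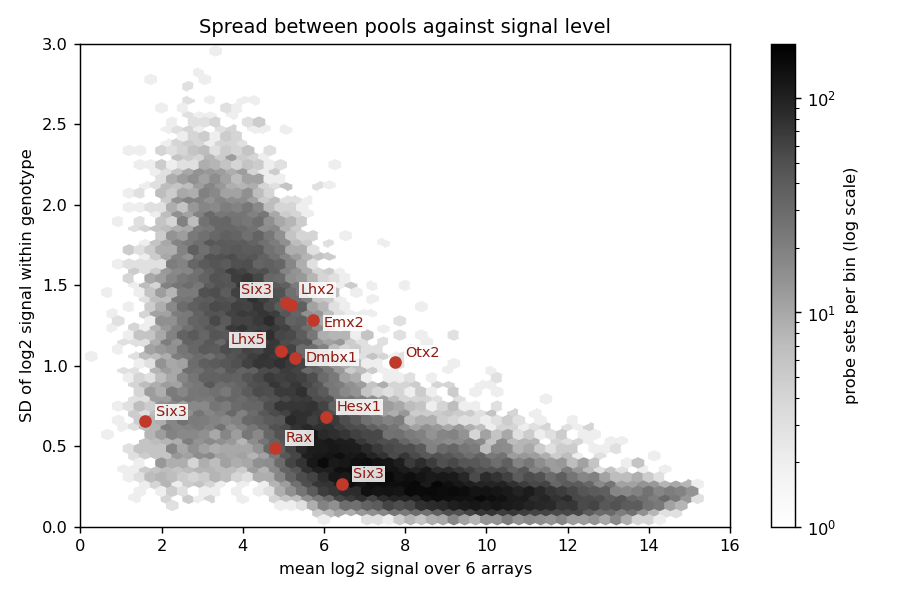
SD of log2 signal within genotype against mean log2 signal over the 6 arrays for all 45037 probe sets (grey bins, log colour scale), with the 10 probe sets of the group in red. Otx2, at a mean log2 signal of 7.74 and an SD of 1.02, lies above nearly all probe sets of its level, and the brightest Six3 probe set, at 6.44 and 0.27, lies below the median SD of its level, 0.43.

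Null pool 1 carried most of the summed Otx2 signal of the null group, 66.6%. It was the highest null pool in 8 of the 10 probe sets of the group and the lowest in 0, and it was the highest in 37.5% of all probe sets. After each array was centred on its median, the counts were 7 of 10 and 28.8%. Without Otx2, the signals of the 7 other genes summed to 655, 393 and 422 in null pools 1, 2 and 3, against 306, 398 and 211 in wild-type pools 1, 2 and 3. Null pool 2 was thus not above the highest wild-type pool in this sum.

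Most listed genes of 2 other tissues were also higher in null pool 1 than in the other null pools. Of all probe sets, 37.5% were highest in null pool 1 among the null pools, and 28.8% after median centring. The list counts were taken without centring. Anterior endoderm and prechordal plate, which also express Otx2, were represented by 14 genes, 11 of them at or above the median. Null pool 1 was the highest null pool in 8 of the 14, and their signals summed to 7156 to 9236 across null pools, against 7510 to 7804 across wild-type pools. Sox17, the brightest of the list, weighed most in these sums. It had 3085, 2942 and 2596 in null pools, against 3434, 3377 and 3188 in wild-type pools. Null pools lay entirely above the wild type for 1 of the 14 and entirely below for 2, and 0 passed. Over all probe sets the shares were 5.57% above and 4.41% below. Sfrp5, a secreted Wnt inhibitor with the smallest p of the list, had 252, 217 and 278 in null pools, against 118, 78.3 and 73.1 in wild-type pools, and was highest in null pool 3. Dkk1, a secreted Wnt antagonist, stood lower, with 313, 167 and 155 in null pools, against 336, 539 and 490 in wild-type pools. Lefty1, a Nodal antagonist, had 10.5, 44.7 and 27.1 in null pools, against 43.8, 38.9 and 68.4 in wild-type pools, with null pool 1 the lowest of all. Cer1, a secreted Nodal, BMP and Wnt antagonist of anterior endoderm, had 1162, 265 and 748 in null pools, against 216, 156 and 462 in wild-type pools. Hhex, a homeobox gene of anterior endoderm, had 504, 174 and 272 in null pools, against 262, 110 and 196 in wild-type pools. Cer1 and Hhex followed the order of Otx2 among the null pools but overlapped with the wild type, and Hhex was chosen after its values were seen. Gsc, a defining gene of prechordal plate, was at 4.48 to 27.8 across null pools, against 3.62 to 7.89 across wild-type pools, near the bottom of the scale.

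Epiblast genes, a tissue in which Otx2 is on before gastrulation, were highest in null pool 1 in 8 of 10 cases. The share over all probe sets was 37.5%, without centring in either case. Their summed signals were 24018 to 28570 across null pools, against 16678 to 24876 across wild-type pools. Dnmt3b, the brightest of the list, weighed most in these sums and was lowest in null pool 1 of the null pools. It had 11373, 14721 and 14419 in null pools, against 9382, 13578 and 9370 in wild-type pools. Of the 10 genes 2 lay entirely above the wild type, Tdgf1 and Fgf5, as did 5.57% of all probe sets, and 0 passed. Tdgf1, a Nodal co-receptor gene with the smallest p of the list, had 108, 84.9 and 109 in null pools, against 36.4, 33.2 and 3.44 in wild-type pools, so null pools 1 and 3 were alike. Fgf5, a growth factor gene of the epiblast, had 255, 81.2 and 110 in null pools, against 44.0, 52.5 and 8.63 in wild-type pools. Utf1, a chromatin factor of pluripotent cells, had 307, 153 and 112 in null pools, against 104, 98.6 and 113 in wild-type pools. Pou5f1, the defining pluripotency factor, had 3344, 2727 and 1874 in null pools, against 4352, 3172 and 1398 in wild-type pools, so its groups overlapped widely. Null pool 1 was the highest null pool in 5 of 10 heart genes, 2 of 10 surface ectoderm genes, 1 of 6 primitive blood genes and 0 of 8 visceral endoderm genes. The part of anterior endoderm or epiblast cells in the Otx2 signal was not tested.

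**Figure D4:**
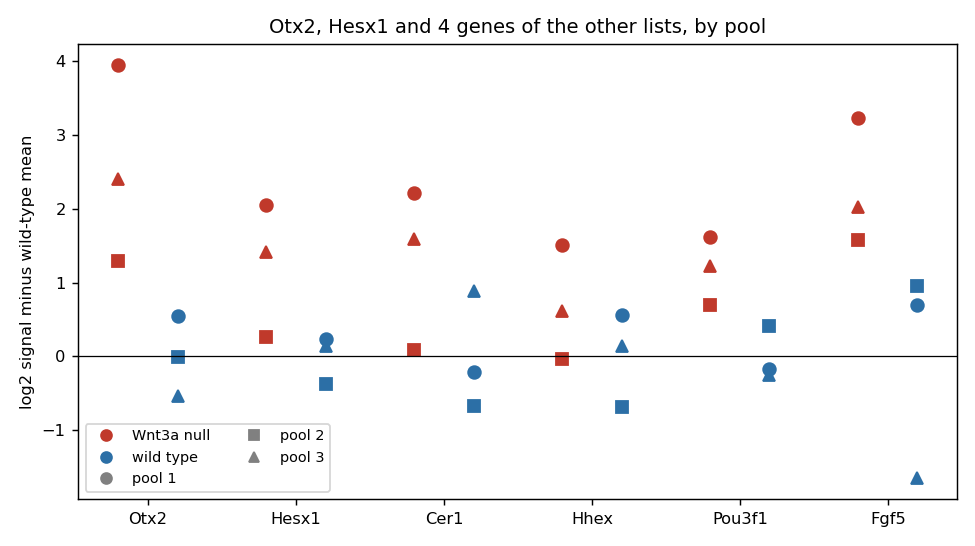
Log2 signal minus the wild-type mean of the same gene, for Otx2, Hesx1 and 4 genes of other lists (Cer1, Hhex, Pou3f1 and Fgf5, picked after their values were seen), with null pools in red at the left and wild-type pools in blue at the right of each gene. In all 6 genes null pool 1 is the highest and null pool 2 the lowest of the null pools. For Cer1 and Hhex null pool 2 lies within the wild-type range. The 4 genes were picked with this order in view, so it does not describe their lists. Among other genes of these lists, Lefty1 and Dnmt3b were lowest in null pool 1, and Sfrp5 was highest in null pool 3.

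Across all 45037 probe sets limma called 0 lower and 0 higher in null pools (smallest adjusted p = 0.245). Before adjustment, p was under 0.05 for 993 probe sets lower in null (2.20%) and 1280 higher (2.84%). In the list of 17 other measured forebrain genes, 0 passed in either direction and 9 averaged higher in null, with a median log2 difference of 0.22. Only 1 of the 17 lay at or above the median signal. Dlx2 and Nkx2-1, genes of the ventral forebrain, and Emx1, a relative of Emx2, did not overlap between groups. Their log2 differences were 3.17, 2.54 and 1.22, but from dim signals. Null pools lay entirely above wild-type pools in 5.57% of all probe sets and entirely below in 4.41%. Dlx2 had 33.2, 53.9 and 43.1 in null pools, against 9.82, 3.13 and 3.46 in wild-type pools (limma, adjusted p = 0.39). Nkx2-1 had 44.5, 49.4 and 23.1 in null pools, against 2.37, 5.12 and 21.5 in wild-type pools. Its log2 difference for number 3 was thus only 0.10. Foxd1, of the ventral diencephalon, stood the other way without overlap, at -1.44. Otx1, the closest relative of Otx2, had 26.1, 5.74 and 25.7 in null pools, against 12.3, 7.24 and 25.9 in wild-type pools (log2 difference 0.24).

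Genes listed for the neural plate as a whole gave a mixed result, and which cells gave their signals was not tested. Of 12 measured genes of this list 0 passed, 8 averaged higher in null, and the median log2 difference was 0.15. In 4 the null pools lay entirely above the wild type (Zic5, Pou3f1, Sox1 and Sox3) and in 0 entirely below. Over all probe sets the shares were 5.57% above and 4.41% below. Zic5, with the smallest p of the list, had a log2 difference of 0.74. Pou3f1, a POU factor of epiblast and anterior neural plate, had 535, 283 and 406 in null pools, against 155, 233 and 147 in wild-type pools. Sox1, a marker of neural plate, had 86.5, 83.4 and 144 in null pools, against 34.8, 22.7 and 74.3 in wild-type pools. Of 11 genes of midbrain and its boundary with the hindbrain, 0 passed, and the median was -0.31. In 2 the null pools lay entirely above the wild type (Lmx1b and Foxa1) and in 2 entirely below (Fgf17 and Gbx2), beside the same shares over all probe sets. Lmx1b, with the smallest p of the list, had 84.2, 79.5 and 61.9 in null pools, against 46.7, 21.6 and 12.1 in wild-type pools. Gbx2, which opposes Otx2 at that boundary, had 966, 1074 and 978 in null pools, against 1702, 1351 and 1292 in wild-type pools (log2 difference -0.52, limma, adjusted p = 0.991). Of 5 measured hindbrain genes 0 passed, and their median was -0.32. The tissue was dissected node and streak, and genes of both lists differed widely in level. Over the 6 arrays En1 had 2.28 to 28.5, En2 15.2 to 65.8 and Wnt1 2.84 to 41.1. Fgf8 also stands in the node and streak list. Hoxb1 had 5783 to 10389, while Egr2 had 7.49 to 57.9. Both medians therefore cannot be read as midbrain or hindbrain alone, and which cells gave these signals was not tested.

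The cofactors of the group were mostly bright, and none passed the test. Of 14 measured cofactor genes 13 lay at or above the median, 0 passed in either direction, and the median log2 difference was -0.12. Null pools lay entirely below the wild type for 3 (Lmo2, Lmo1 and Tle3) and entirely above for 1 (Tcf7l1). Over all probe sets the shares were 4.41% below and 5.57% above. Lmo2, a LIM-only protein that binds Ldb1 and has the smallest p of the list, had 271, 507 and 341 in null pools, against 693, 633 and 672 in wild-type pools. Lmo1, its relative, had 75.6, 14.0 and 97.2 in null pools, against 200, 104 and 106 in wild-type pools. Tcf7l1, a repressor of Wnt targets required for head formation, had 1634, 1416 and 1900 in null pools, against 1382, 1166 and 784 in wild-type pools. Tle3, a Groucho-type corepressor chosen here after its values were seen, had 2047, 2400 and 2119 in null pools, against 2425, 2517 and 2702 in wild-type pools. Ldb1, the cofactor of LIM-homeodomain proteins such as Lhx2 and Lhx5, had 989, 663 and 807 in null pools, against 840, 558 and 892 in wild-type pools, and its groups overlapped.

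**Figure D5:**
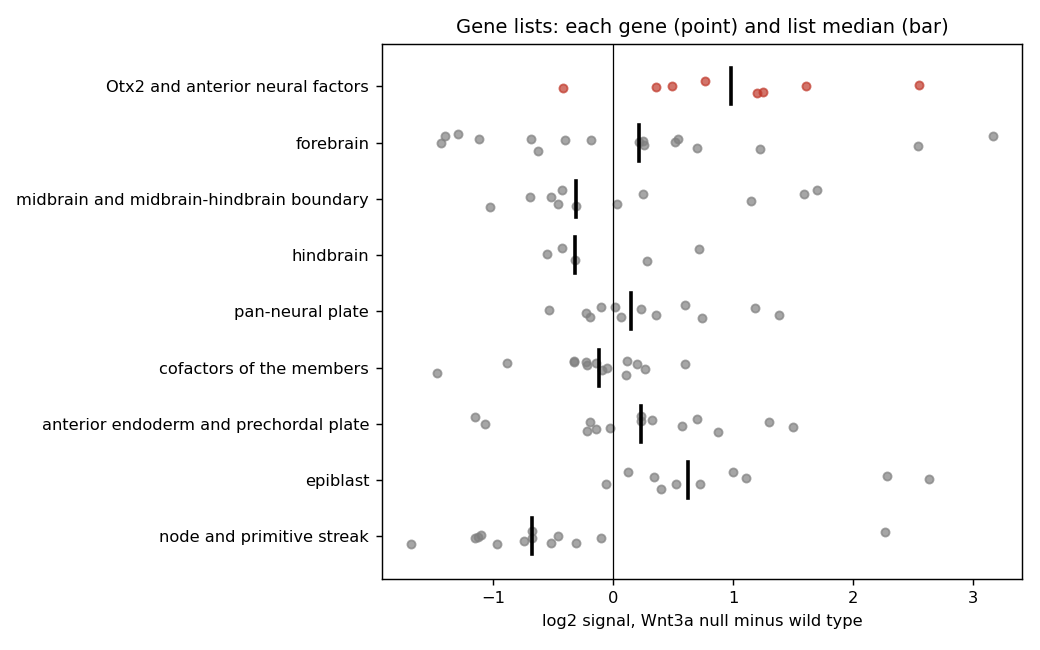
Log2 difference, null minus wild type, of each gene (point, brightest probe set) in 9 lists, with the list median as a black bar and the Otx2 group in red. The Otx2 group has a median of 0.98, forebrain genes 0.22, epiblast genes 0.62 and node and streak genes -0.68. In the lists beside the Otx2 group 0 genes passed the test.

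The genes whose signals most resembled those of Otx2 over the 6 arrays were, in this order, Ints13, Cemip2, Traf3ip1, Gng11, Kifc3 and Snx25, with Pearson correlations of 0.99 to 1.00 in log2 signal among 11151 genes at or above the median. Of these genes 126 had a correlation over 0.9, and the arrays share only 2 genotypes, so these values only describe the arrays. Gng11, a G protein subunit gene, had 426, 225 and 280 in null pools, against 185, 173 and 126 in wild-type pools. Its log2 difference of 0.91 was the widest of the 6. Ints13, the first by likeness, had 1577, 1291 and 1381 in null pools, against 1233, 1175 and 1158 in wild-type pools.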

How the data were processed

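Labelled RNA of 6 pools was hybridised to 6 arrays. Per the labels' protocols, 30 to 50 ng of RNA per embryo was amplified, and 600 ng of amplified RNA from 3 embryos entered the second labelling cycle. The authors deposited 1 linear intensity per probe set and array. The submitters' processing notes name RMA, but the values are linear and share a mean of 500 once 2% is trimmed from both ends of each array, so which step made them is unknown here. Of 45101 probe sets, 64 controls were left out. Of the rest 34945 carry 1 gene symbol, 932 several and 9160 none in the annotation used, and a gene was taken at its brightest probe set, by mean log2 signal. All 8 genes of the group matched RefSeq by gene ID.

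Null was compared with wild type on log2 signal with limma 3.58.1 under R 4.3.3 (lmFit, eBayes, two-sided, Benjamini-Hochberg over 45037 probe sets, threshold 0.05, no filter). A run on simulated data, with noise drawn independently for each array, checked the sign of added differences and not the power of the fit. The depth of an array is limited by its signal over background, and 3 pools per group limit the precision. The smallest two-sided p an exact permutation of 3 against 3 allows is 0.1. Nothing says that pools of a genotype came from separate litters. Replicate numbers were taken to pair the arrays, because deviations from the genotype mean correlated between same-numbered arrays by 0.331, 0.343 and 0.21 over 22519 probe sets at or above the median (bound 0.1), although by 0.0338 to 0.0537 over all probe sets. The main fit held no term for the replicate number, which entered only as a block in alternatives. Its p values and the SDs within genotype therefore ignore the pairing. Genes and lists were chosen with earlier results of these data known. Beside the group, up to 4 genes of each list were named by the smallest p, and 6 by likeness to Otx2. Otx1, Hhex, Gsc, Pou5f1, Foxa1, Tle3, Ldb1, En1, En2, Wnt1, Fgf8, Sox17 and Dnmt3b were named after their values were seen. Alternatives were the replicate block, trend and robust options, quantile normalization, median centring, log2(signal + 50), array weights, a filter at the median, 1 probe set per gene, averaging the probe sets of a gene, and leaving out each array.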

Additional observations from a re-analysis of the deposited data

How the results depend on the processing

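With the replicate number as a block, limma called 0 probe sets lower and 0 higher, as without it. The trend and robust options called 1 lower, and the replicate block with these options called 14 lower and 8 higher, among them 1 gene of the lists, Sp5. Every other alternative, leaving out single arrays included, called 0. Otx2 kept a positive log2 difference under all 10 alternatives, from 1.85 (without null replicate 1) to 3.18 (without null replicate 2), and 2.05 with log2(signal + 50). Hesx1 ranged from 0.74 to 1.74, Emx2 from 0.58 to 2.13 and Dmbx1 from 0.44 to 1.96, all above 0. The sign changed in 1 of 9 alternatives for Lhx2 (-0.27 without wild-type replicate 3), in 1 for Lhx5 (0.28 without null replicate 3) and in 2 for the dimmest Six3 probe set. The median of the 8 genes was 0.65 to 1.23 with single arrays left out and 0.33 with log2(signal + 50), an offset that shrinks differences between dim signals. Mean signals below the median limit every probe set of the group but that of Otx2 and the brightest of Six3. For Otx2, the signal of 60.7 in wild-type pool 3 also lay below the median level of 71.5.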
